A study of Mus musculus with 36 samples.

Results

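RNA levels of 10 genes that drive or restrain the G1 phase of the cell cycle were followed in Taf1 knockout and control cells. These were haematopoietic stem and progenitor cells (HSPCs) from mouse bone marrow. The genes were taken by symbol. They are the D-type cyclins Ccnd1, Ccnd2 and Ccnd3, the E-type cyclins Ccne1 and Ccne2, the kinases Cdk4 and Cdk6, and the inhibitors Cdkn1b, Cdkn2c and Cdkn2d. All 10 were found among the 24411 genes of each of the 2 tables. All 10 also passed the filter on low values, at least 1 TPM in at least 3 libraries, in every fit. TPM is a transcript level corrected for length and scaled to a fixed total per library.

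In mammalian cells D-type cyclins bind and activate CDK4 and CDK6 when growth factors are present, and these kinases begin the phosphorylation of the retinoblastoma protein. Cyclin E with CDK2 continues it, which frees E2F factors to switch on S phase genes. CDKN2C and CDKN2D, of the INK4 family, bind CDK4 and CDK6, while CDKN1B, of the CIP/KIP family, binds cyclin E with CDK2. TAF1 is a subunit of TFIID, the general factor that recognises core promoters. Hamster cells with a temperature-sensitive TAF1 are known to stop in G1.

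The knockout cells carried a conditional knockout of Taf1, and the control cells were labelled WT. Cells of both genotypes were taken at day 0 and, after growth with SCF plus IL-3, at day 3. They were then split between cultures for macrophages, which received GM-CSF and M-CSF together and later only M-CSF, and cultures for granulocytes, which received G-CSF on top of SCF plus IL-3 and later G-CSF by itself. Each cytokine was used at 50 ng/ml, horse serum was present, and both courses were sampled at days 5 and 7. That gave 12 groups of 3 libraries, 36 in all. The design asks how loss of Taf1 affects the differentiation of these cells. The sources used here do not give the way the deletion was made, the part of Taf1 removed, or the strain, sex and age of the mice. The labels do not say that replicates came from separate mice, so a p-value measures the spread between these libraries, which may be technical.

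Taf1 itself was lower in knockout cells at 5 of the 6 stages, and its RNA was still present in the knockout libraries. In day 5 macrophage cultures it had 6.15, 6.23 and 5.94 TPM in knockout libraries, against 12.6, 13 and 13.8 TPM in control libraries. At day 3 it had 8.66, 10.3 and 9.06 TPM in knockout libraries, against 9.62, 10.9 and 11.4 TPM in control libraries, with overlap (log2 difference -0.17 ± 0.08, adjusted p = 0.0711; ± gives the SE here and in all later log2 values). Once the libraries were scaled by the median of ratios, that day 3 difference passed (-0.22, adjusted p = 0.00631). The summed TPM of 8 progenitor markers was 482.3 to 610.9 in knockout and 536.6 to 629.6 in control libraries at day 0, and these ranges overlapped. The genotypes already differed there in other lists. Granulocyte markers (11 in the table) summed to 23680.0 to 43450.0 TPM in knockout and 10290.0 to 18620.0 TPM in control libraries, with 3 called higher and 0 lower. Macrophage markers summed to 111.3 to 124.1 and 181.6 to 254.8 TPM in the same order, with 1 of 12 called higher and 2 lower. Neither list overlapped between the genotypes, and their part in the day 0 results was not tested. Of all genes 13.1% were called higher and 10.2% lower at day 0. The sum of 12 macrophage markers in day 7 macrophage cultures was 2211 to 2555 in knockout and 1927 to 2920 in control libraries. In day 7 granulocyte cultures it was 992.4 to 1280.0 and 1755 to 2706, so the control ranges of the 2 courses overlapped. The sum of 11 granulocyte markers in day 7 granulocyte cultures was 152600.0 to 173900.0 in knockout and 121700.0 to 171100.0 in control libraries. Some libraries stood apart. Control replicate 1 of day 5 differed from the other controls in both courses, with the highest Cdkn1b of its groups, and knockout replicate 1 of day 7 had the highest Cdkn2d of the knockout groups in both. Its level of Rpph1, a short structural RNA, also stood apart, with 60227, 28465 and 31509 TPM in the 3 knockout macrophage libraries and 51362, 17604 and 18274 TPM in the granulocyte ones. Without that control 2 of the 10 genes were called at day 5 in macrophage and 3 in granulocyte cultures, against 4 and 5 with it. Without that knockout replicate 3 and 5 were called at day 7, against 4 and 6 with it. In each library 10289 to 11226 genes had at least 1 TPM, and the read depth is unknown.

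The promoters of Cdk4 and Cdkn1b are shown because these genes moved in opposite directions at day 3. Each is the 250 bases before the RefSeq start on GRCm38.p6, for Cdk4 chr10:127063285-127063534, plus strand, and for Cdkn1b chr6:134920151-134920400, plus strand. Capitals mark GC boxes (GGGCGG) and CCAAT boxes (CCAAT) on either strand.
Cdk4: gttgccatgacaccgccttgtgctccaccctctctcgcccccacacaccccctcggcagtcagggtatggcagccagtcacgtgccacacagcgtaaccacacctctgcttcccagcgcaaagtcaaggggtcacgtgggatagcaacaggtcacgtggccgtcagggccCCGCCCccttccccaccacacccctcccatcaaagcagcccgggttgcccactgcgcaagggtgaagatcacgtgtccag
Cdkn1b: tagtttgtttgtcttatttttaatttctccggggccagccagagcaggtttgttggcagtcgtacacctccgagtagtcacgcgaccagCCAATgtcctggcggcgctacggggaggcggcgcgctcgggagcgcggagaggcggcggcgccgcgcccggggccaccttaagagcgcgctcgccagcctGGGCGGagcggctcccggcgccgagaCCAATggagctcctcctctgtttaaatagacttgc
The Cdk4 window held 1 GC box, and the Cdkn1b window held 1 GC box and 2 CCAAT boxes. Among the windows of the same length of 32851 RefSeq starts, 32.7% held a GC box and 33.8% a CCAAT box. RefSeq windows were at hand for 7 of the 10 genes, 9 windows in all. Of these, 7 held a GC box, 3 a CCAAT box and 1, of Cdk6, a TATA box (TATAAA, in 12.4% of all windows). The E2F sites TTTCCCGC (in 0.895% of all windows) and TTTGGCGC (0.417%) were in 0 of them. A GC box on the opposite strand can share letters with the first of these E2F sites, and a match is a description of the sequence only. The windows with a GC box were 59.6% to 77.2% G or C, against a median of 52.4% over all windows. The part of base content in the count of GC boxes was not tested. In the GENCODE M21 annotation exons of the same gene reached into the windows of Ccne1, Cdk6, Cdkn2c and Cdkn2d. They also reached into the Ccnd3 window at chr17:47593217-47593466, and into the Cdk4 window only at its last base. Such windows are thus not upstream of every annotated start of their gene.

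The knockout was set against the control at each stage on log2(TPM + 1), with limma fitted across all genes and p-values adjusted over all of them. Each log2 difference is knockout minus control, and a gene was called where the adjusted p was under 0.05. At day 0 limma called 0 of the 10 genes, with 1 (Ccne1) at an unadjusted p under 0.05. Of 11953 tested genes 13.1% were called higher and 10.2% lower at that day, 1568 and 1222 genes. With control replicate 3 left out these were 759 higher and 1154 lower, and with control replicate 2 left out 1318 and 806. At day 3 the calls were 5 higher (Ccnd2, Ccne1, Ccne2, Cdk4 and Cdkn2c) and 2 lower (Cdkn1b and Cdkn2d), beside 26.5% higher and 26.7% lower of all genes. The median log2 difference at day 3 was 0.30 over the 10 genes and -0.0094 over all genes. In day 7 cultures of both courses the median over the 10 genes lay below that over all genes.

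In the later cultures 4 to 6 of the 10 genes were called. Day 5 macrophage cultures had 1 gene higher (Cdkn2c) and 3 lower (Ccne2, Cdk6 and Cdkn2d), beside 5.11% and 37.9% of all genes. Day 7 macrophage cultures had 3 higher (Ccnd2, Cdk4 and Cdk6) and 1 lower (Cdkn2d), beside 27.4% and 12.5%. Day 5 granulocyte cultures had 2 higher (Ccnd2 and Cdk4) and 3 lower (Ccne1, Ccne2 and Cdkn2d), beside 9.2% and 22.8% of 11905 tested genes. Day 7 granulocyte cultures had 3 higher (Ccnd1, Ccnd2 and Cdk4) and 3 lower (Ccne2, Cdkn2c and Cdkn2d), beside 32.1% and 12% of all genes.

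TPM is a relative scale, and a median-of-ratios scaling of the libraries moved the median log2 difference of all genes. It was -0.0186 after scaling, against -0.228 as deposited, in day 5 macrophage cultures. The same values were -0.0114 and 0.117 in day 7 macrophage cultures, and -0.0131 and 0.165 in day 7 granulocyte cultures. After scaling the 10 genes gave 0 higher and 1 lower at day 0, 5 and 2 at day 3, 3 and 0 in day 5 macrophage cultures and 1 and 5 in day 7 macrophage cultures. Day 5 granulocyte cultures gave 3 and 2, and day 7 granulocyte cultures 2 and 4. Over all genes the scaled calls were 1313 higher and 1746 lower at day 0, and 3186 and 3754 at day 3. They were 2212 and 2379 in day 5 macrophage, 2227 and 2565 in day 7 macrophage, 2197 and 2603 in day 5 granulocyte, and 2500 and 2845 in day 7 granulocyte cultures. Without short structural RNA and histone genes the calls over all genes were 2533 higher and 1271 lower at day 0, 2320 and 2015 in day 7 macrophage and 3012 and 1830 in day 7 granulocyte cultures. In day 5 granulocyte cultures 1095 genes were higher and 2711 lower as reported, 700 and 1989 with knockout replicate 2 left out, and 1313 and 2041 with control replicate 1 left out. Of the 26 calls on the 10 genes 11 held under each of the alternatives tried, and the others are given with the setting that ended them.

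**Figure D1:**
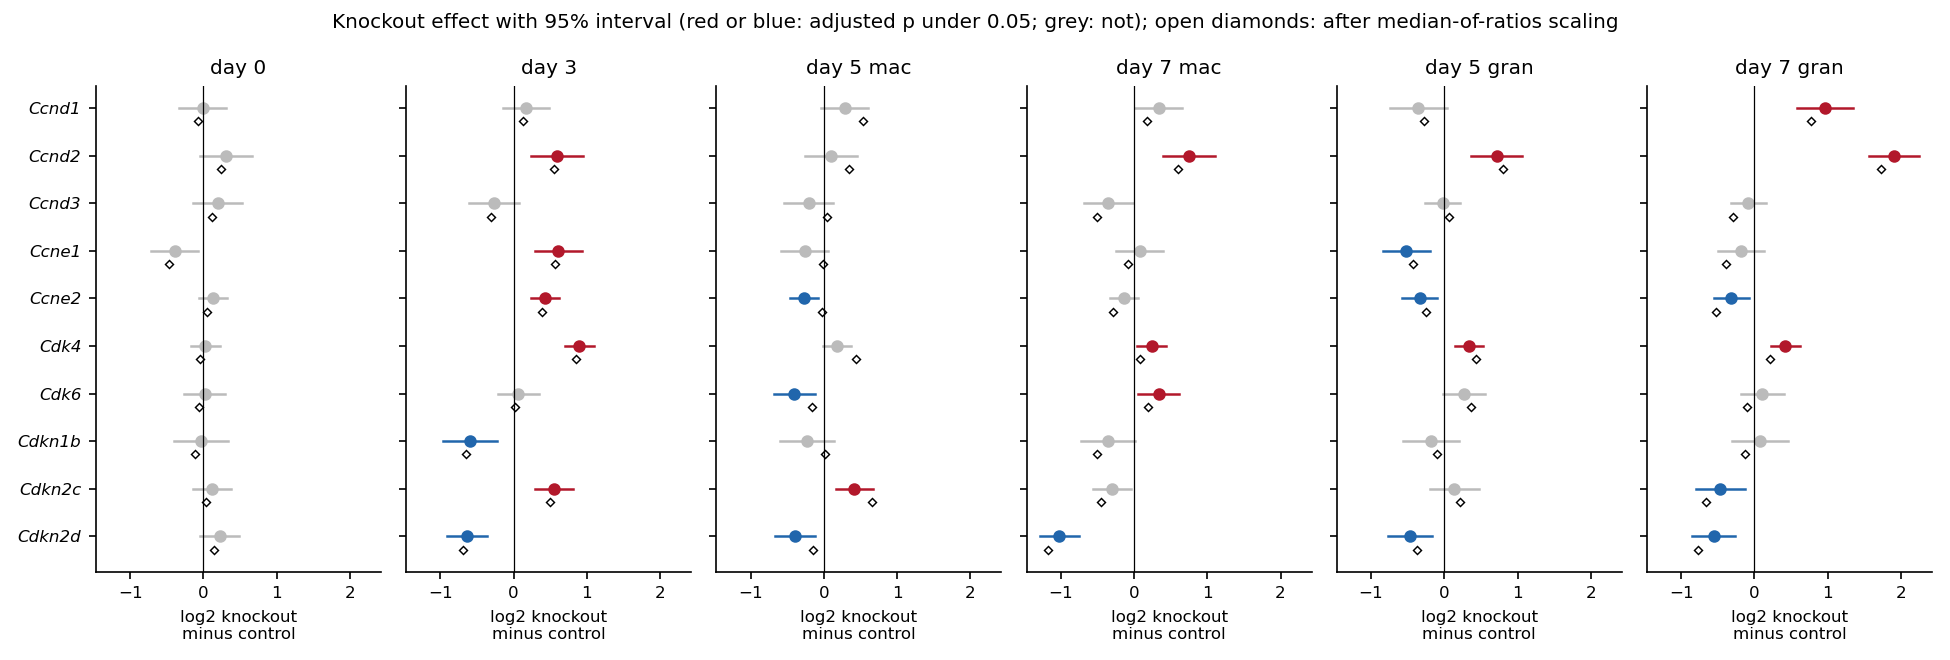
Difference of knockout minus control on log2(TPM + 1) for each gene (rows) at each stage (panels; mac, macrophage course; gran, granulocyte course), with 95% intervals from limma. Red and blue points had an adjusted p under 0.05 and grey points did not, open diamonds give the difference after median-of-ratios scaling; Ccnd2 lies to the right at day 3, day 7 macrophage and both granulocyte stages, and Cdkn2d lies to the left at all 5 cultured stages.

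Among the D-type cyclins, Ccnd2 was higher in knockout cells at day 3, in day 7 macrophage cultures and at both granulocyte stages. The 4 calls held under each alternative. The gene lies at chr6:127125162-127152193, minus strand (mm10, GENCODE M21, as for all positions below), and its product is the cyclin that growth factor signalling induces in many blood cells. Day 7 granulocyte cultures had 11.4, 16 and 17.1 TPM in knockout libraries, against 3.27, 3.35 and 2.95 TPM in control libraries. Ccnd2 differed by 1.9 ± 0.17 on the log2 scale (adjusted p = 4.34e-08), and its lowest knockout library was above all 3 controls. Day 7 macrophage cultures had 14.2, 14.7 and 15.6 TPM in knockout libraries, against 10.2, 9.41 and 6.2 TPM in control libraries (log2 difference 0.75 ± 0.17, adjusted p = 0.00182), again without overlap. Along both courses Ccnd2 fell in both genotypes. In the granulocyte course day 7 minus day 3 was -0.92 ± 0.17 (adjusted p = 8.98e-05) in knockout and -2.23 ± 0.17 (adjusted p = 8.63e-10) in control cells. In the macrophage course it was -0.90 ± 0.17 (adjusted p = 0.000117) and -1.05 ± 0.17 (adjusted p = 1.95e-05).

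At day 3 Ccnd2 had 24.8, 32.5 and 28.8 TPM in knockout libraries, against 15.8, 20.2 and 20.1 TPM in control libraries. Ccnd2 differed by 0.59 ± 0.17 on the log2 scale (adjusted p = 0.00632). In day 5 granulocyte cultures it had 20.9, 28.5 and 33.4 TPM in knockout libraries, against 17.6, 16.3 and 14.6 TPM in control libraries (log2 difference 0.72 ± 0.17, adjusted p = 0.00232). The groups did not overlap at either stage. The mean at day 0 was 33 ± 3.38 TPM in knockout and 26.6 ± 4.43 TPM in control cells (SD, n = 3 each), and in day 5 macrophage cultures 21.1 ± 0.595 TPM in knockout and 20.1 ± 5.42 TPM in control cells. Neither of those differences passed. The knockout effect on Ccnd2 was smaller in macrophage than in granulocyte cultures at day 7 (difference of the effects -1.16 ± 0.24, adjusted p = 0.0286). That difference of effects lost its call when any of 9 single libraries was left out, with adjusted p values of 0.0541 to 0.0868, and with a pseudocount of 5 TPM (adjusted p = 0.0507).

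Ccnd1 (chr7:144929931-144939925, minus strand) was the D-type cyclin that rose along the macrophage course. In knockout cells its mean was 7.63 TPM at day 0, 4.03 TPM at day 3, 25.7 TPM at day 5 and 123 TPM at day 7. In control cells the same days gave 7.6, 3.45, 21 and 98.1 TPM. Day 7 minus day 3 was 4.63 ± 0.15 with an adjusted p of 2.23e-15 in knockout and 4.46 ± 0.15 with an adjusted p of 6.31e-15 in control cells on the log2 scale. Ccnd1 rose over the same days of the granulocyte course too. That step was 2.02 ± 0.19 (adjusted p = 1.93e-08) in knockout and 1.23 ± 0.19 (adjusted p = 1.33e-05) in control cells. The fall at day 3 against day 0 also passed, with -0.76 ± 0.15 with an adjusted p of 0.000272 in knockout and -0.94 ± 0.15 with an adjusted p of 1.31e-05 in control cells. At day 7 macrophage minus granulocyte was 2.61 ± 0.13 with an adjusted p of 4.06e-07 in knockout and 3.23 ± 0.13 with an adjusted p of 1.76e-07 in control cells.

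Day 7 granulocyte cultures had Ccnd1 at 19.1, 19.8 and 18.9 TPM in knockout libraries, against 8.25, 9.17 and 11 TPM in control libraries. Ccnd1 differed by 0.96 ± 0.19 on the log2 scale (adjusted p = 0.000368), with every knockout library above every control. In day 7 macrophage cultures it had 129, 123 and 117 TPM in knockout libraries, against 83.5, 91.1 and 119.9 TPM in control libraries. Those groups overlapped (adjusted p = 0.0843), and the difference passed without control replicate 3 (0.49, adjusted p = 0.0164) and with a pseudocount of 5 TPM. In day 5 macrophage cultures the log2 difference of 0.29 ± 0.15, adjusted p = 0.136, became 0.53 after scaling (adjusted p = 0.0114). In day 5 granulocyte cultures it passed as lower without knockout replicate 1 (-0.62, adjusted p = 0.00832).

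Ccnd3 (chr17:47505051-47599691, plus strand) had the highest mean level of the D-type cyclins in both genotypes at every stage but day 7 of the macrophage course, where the order of Ccnd1 and Ccnd3 in control cells differed between libraries. It averaged 72.5 ± 9.7 TPM in knockout and 63.2 ± 7.93 TPM in control cells at day 0 and 168 ± 5.25 TPM in knockout and 202 ± 2.32 TPM in control cells at day 3 (SD, n = 3 each). Its rise at day 3 was 1.21 ± 0.16 with an adjusted p of 3.24e-06 in knockout and 1.67 ± 0.16 with an adjusted p of 1.3e-08 in control cells. By day 7 of the macrophage course it fell in both genotypes, with -1.49 ± 0.16 with an adjusted p of 1.04e-07 in knockout and -1.41 ± 0.16 with an adjusted p of 2.54e-07 in control cells. Day 7 macrophage cultures had less Ccnd3 than granulocyte cultures, with means of 59.4 TPM and 134 TPM in knockout cells and 77.7 TPM and 143 TPM in control cells.

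The knockout comparison of Ccnd3 did not pass at any stage. At day 3 it had 173, 168 and 163 TPM in knockout libraries, against 199.6, 203 and 204 TPM in control libraries, without overlap (adjusted p = 0.177). The same difference passed when the day 3 groups were fitted alone (adjusted p = 0.00931). In day 7 macrophage cultures it had 66.4, 56 and 55.8 TPM in knockout libraries, against 87.6, 90.9 and 54.5 TPM in control libraries. There the lower level passed after scaling (-0.51, adjusted p = 0.0364) and with control replicate 3 left out (-0.58, adjusted p = 0.00293). Day 7 minus day 3 in the granulocyte course passed in both genotypes and was lost after scaling in both (adjusted p = 0.0896 in knockout and 0.079 in control cells). In knockout cells it was also lost when day 3 replicate 1 or day 7 replicate 2 was left out (adjusted p values of 0.0602 and 0.105).

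As shares of the summed TPM of the 3 D-type cyclins, Ccnd3 made up 83.7% in knockout and 90.1% in control cells at day 3. In day 7 macrophage cultures it made up 30.1% and 42%, and Ccnd1 made up 62.3% in knockout and 53.3% in control cells. Ccnd1 had the larger share in all 3 knockout libraries there. In control libraries the shares of Ccnd1 (46% to 66.4%) and Ccnd3 (30.2% to 48.3%) overlapped. Control replicate 1 had 83.5 TPM of Ccnd1 and 87.6 TPM of Ccnd3, replicate 2 had 91.09 and 90.9 TPM, and replicate 3 had 119.9 and 54.5 TPM, so the higher control mean of Ccnd1 rested on replicate 3. In day 7 granulocyte cultures Ccnd1 and Ccnd2 made up 11.5% and 8.87% in knockout cells, against 6.19% and 2.05% in control cells. The share of Ccnd2 was higher in all knockout libraries than in any control at each of the 5 cultured stages. At day 0 the libraries overlapped, with means of 29.3% in knockout and 27.2% in control cells. In an exact two-sided permutation test the smallest p that 3 against 3 libraries allow is 0.1. Over the 24 share comparisons that p becomes 0.171 after adjustment.

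**Figure D2:**
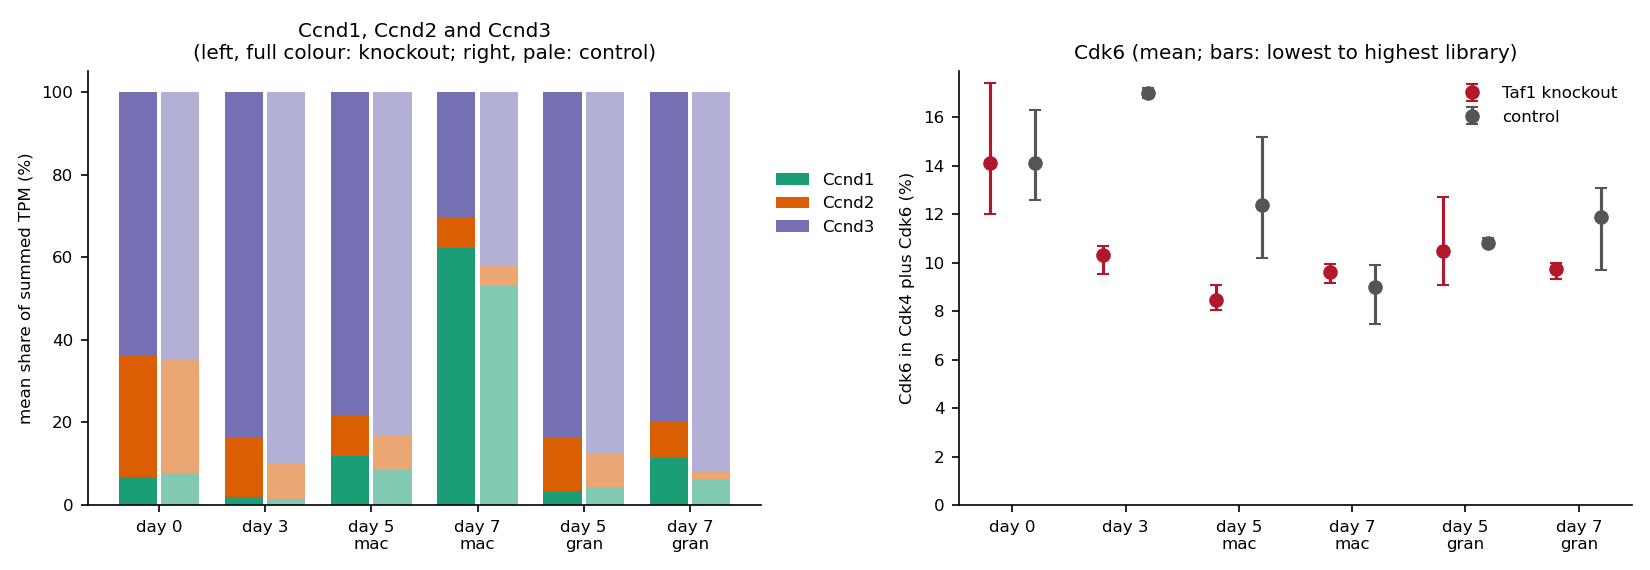
Left, mean share (%) of Ccnd1, Ccnd2 and Ccnd3 in their summed TPM at each stage, knockout as the full-coloured bar and control as the pale bar; right, share (%) of Cdk6 in the sum of Cdk4 and Cdk6, as the mean with bars from the lowest to the highest of 3 libraries. Ccnd1 takes 62.3% in knockout and 53.3% (46% to 66.4% over the libraries) in control cells at day 7 of the macrophage course, and the share of Cdk6 at day 3 is 10.3% in knockout and 17% in control cells.

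Cdk4 (chr10:127063534-127067920, plus strand), which encodes a catalytic partner of D-type cyclins, had the largest knockout effect of the 10 genes at day 3. It had 320.5, 345 and 344 TPM in knockout libraries, against 160.1, 188 and 194 TPM in control libraries. Cdk4 differed by 0.90 ± 0.09 on the log2 scale (adjusted p = 2.01e-07), with every knockout library far above every control. At day 0 the means were 501 ± 29.4 TPM in knockout and 492 ± 36.2 TPM in control cells (SD, n = 3 each). Day 3 minus day 0 was -0.57 ± 0.09 with an adjusted p of 3.16e-05 in knockout and -1.44 ± 0.09 with an adjusted p of 2.81e-11 in control cells. These falls differed between the genotypes (difference 0.87 ± 0.13, adjusted p = 9.44e-05).

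Knockout granulocyte cultures also had more Cdk4. At day 5 they had 271, 296 and 272 TPM in knockout libraries, against 229, 219 and 215 TPM in control libraries (log2 difference 0.34 ± 0.09, adjusted p = 0.00969). At day 7 they had 215, 191 and 199 TPM in knockout libraries, against 138, 140.2 and 175 TPM in control libraries (log2 difference 0.42 ± 0.09, adjusted p = 0.00138). The groups did not overlap at either day. The day 5 call was lost when knockout replicate 2 was left out (0.30, adjusted p = 0.0533) and the day 7 call after scaling (0.21, adjusted p = 0.0609).

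Day 7 macrophage cultures had Cdk4 at 265, 264 and 255 TPM in knockout libraries, against 204, 214 and 248 TPM in control libraries. The adjusted p of 0.0459 was lost under 12 of 17 alternatives, among them scaling (0.082, adjusted p = 0.396) and the replicate block (adjusted p = 0.0584). Leaving out control replicate 1 or 2, or any knockout replicate, gave adjusted p values of 0.0794 to 0.197. At day 5 the macrophage means were 219 ± 13.1 TPM in knockout and 193 ± 20.3 TPM in control cells. That difference passed after scaling (0.43, adjusted p = 0.00013), after subtraction of the median of all genes and with control replicate 1 left out (0.26, adjusted p = 0.0328).

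Cdk6 (chr5:3341485-3531008, plus strand), the kinase known for its high level in blood progenitors, fell in both genotypes by day 3. The day 0 levels were 78, 99.2 and 68.9 TPM in knockout libraries, against 90.3, 82.1 and 68.9 TPM in control libraries. The day 3 levels were 33.8, 41.3 and 41.3 TPM in knockout libraries, against 32.3, 38.7 and 40.5 TPM in control libraries, and the genotypes overlapped at both days. Day 3 minus day 0 was -1.05 ± 0.13 with an adjusted p of 1.66e-06 in knockout and -1.09 ± 0.13 with an adjusted p of 3.37e-07 in control cells. In day 5 macrophage cultures it was lower in knockout cells, with 20.5, 18.8 and 21.2 TPM in knockout libraries, against 24.6, 24.4 and 32.4 TPM in control libraries (log2 difference -0.40 ± 0.13, adjusted p = 0.0203). This call was lost after scaling (-0.16, adjusted p = 0.325), with control replicate 3 left out (-0.27, adjusted p = 0.131) and with knockout replicate 2 left out (-0.36, adjusted p = 0.076).

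Macrophage cultures of day 7 had Cdk6 at 26.7, 29.1 and 27.5 TPM in knockout libraries, against 21.9, 23.5 and 20.0 TPM in control libraries (log2 difference 0.34 ± 0.13, adjusted p = 0.0495). The groups did not overlap. The call was lost under 13 of 17 alternatives, among them each of the 6 libraries left out in turn (adjusted p values of 0.0577 to 0.14), scaling (0.19, adjusted p = 0.241) and the replicate block (adjusted p = 0.0534). Granulocyte cultures averaged 33 TPM in knockout and 26.9 TPM in control cells at day 5 and 21.7 TPM and 20.1 TPM at day 7, and neither passed. The day 5 difference passed as higher after scaling (0.36, adjusted p = 0.0474) and with knockout replicate 1 left out (0.40, adjusted p = 0.049).

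As a share of Cdk4 plus Cdk6, Cdk6 made up 10.3% in knockout and 17% in control cells at day 3. In day 5 macrophage cultures it made up 8.45% and 12.4%. The groups overlapped at neither stage (exact two-sided permutation p = 0.1 each, 0.171 after adjustment). At day 0 the share was 14.1% in both genotypes.

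**Figure D3:**
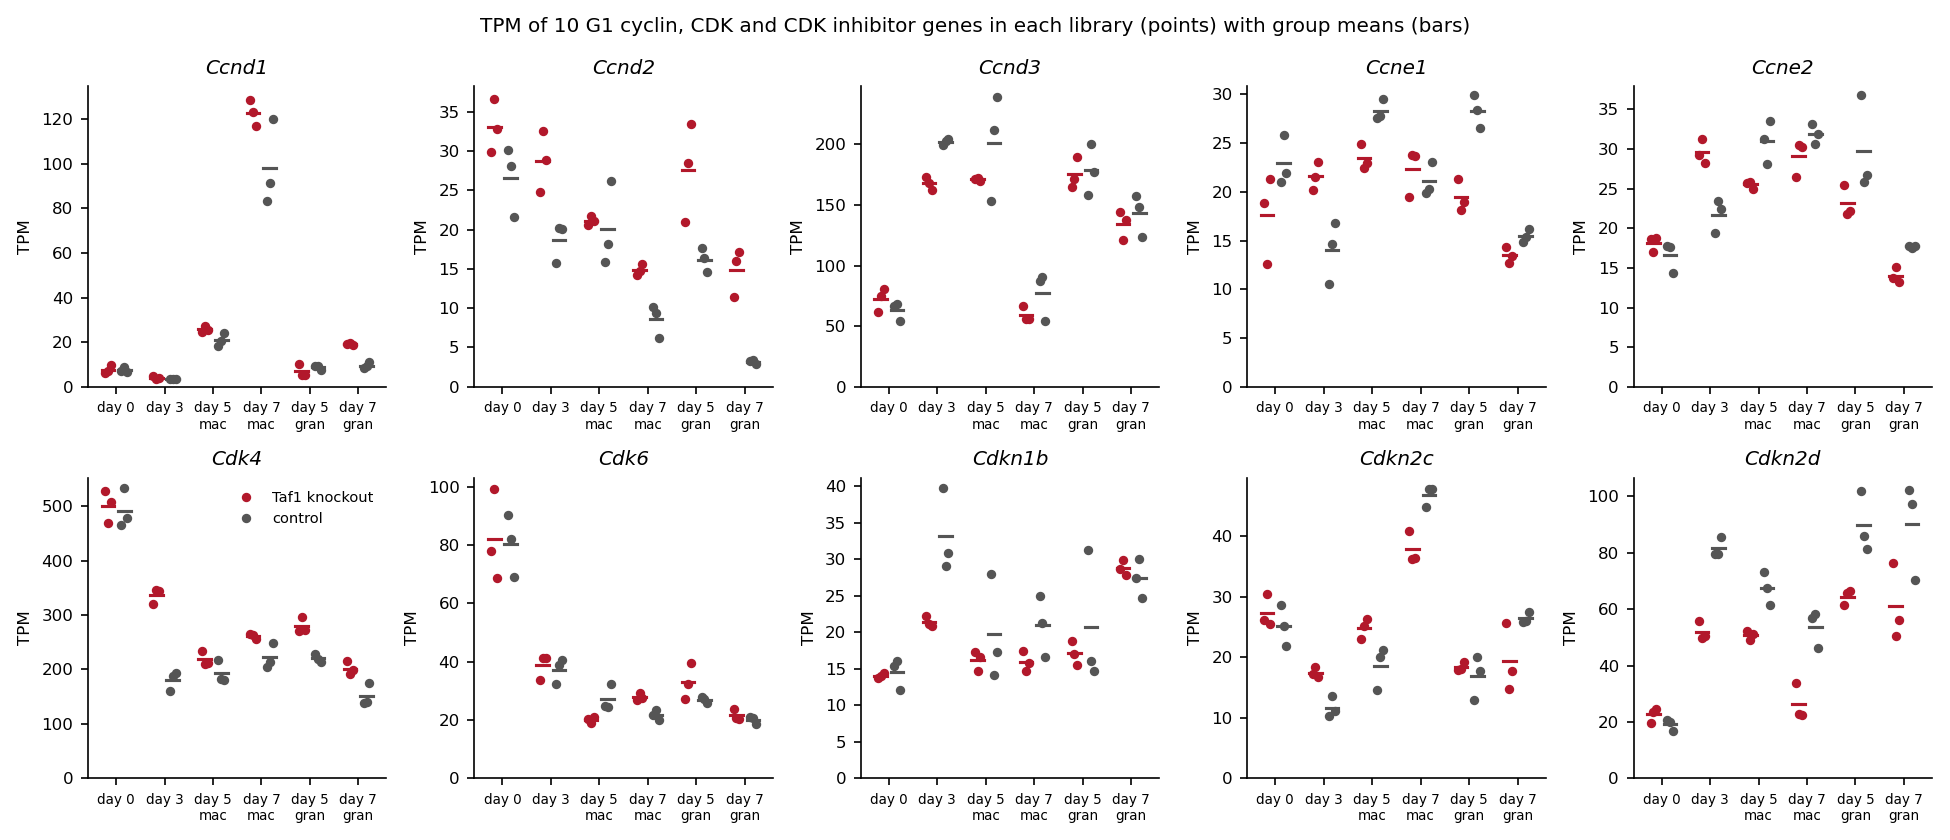
TPM of each gene (panels) in every library (points, knockout left of control) with group means (bars) at days 0 and 3 and at days 5 and 7 of the macrophage (mac) and granulocyte (gran) courses; axes start at 0. Cdk4 at day 3 shows knockout libraries of 320.5 to 345 TPM and control libraries of 160.1 to 194 TPM, Ccnd1 is highest at day 7 of the macrophage course, and Cdkn2d is lower in knockout cells at every cultured stage, with an overlap at day 7 of the granulocyte course.

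The E-type cyclins, which activate CDK2 late in G1, were both higher in knockout cells at day 3. Ccne1 (chr7:38097984-38107534, minus strand) had 20.2, 21.5 and 23 TPM in knockout libraries, against 10.5, 14.7 and 16.8 TPM in control libraries. Ccne1 differed by 0.61 ± 0.15 on the log2 scale (adjusted p = 0.00233). Ccne2 (chr4:11191351-11204779, plus strand) had 29.2, 31.3 and 28.2 TPM in knockout libraries, against 19.4, 23.4 and 22.4 TPM in control libraries. Ccne2 differed by 0.43 ± 0.09 on the log2 scale (adjusted p = 0.000552). Neither pair of groups overlapped, and both calls held under each alternative. In control cells Ccne1 fell by day 3 (log2 -0.69 ± 0.15, adjusted p = 0.00043), whereas its step in knockout cells did not pass (0.31 ± 0.15, adjusted p = 0.0915). The steps differed (1.001 ± 0.22, adjusted p = 0.00185).

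In knockout granulocyte cultures both were lower at day 5, and Ccne2 was lower at day 7. At day 5 Ccne1 had 21.4, 18.2 and 19 TPM in knockout libraries, against 29.9, 28.4 and 26.6 TPM in control libraries. Ccne1 differed by -0.52 ± 0.15 on the log2 scale (adjusted p = 0.0132), a call lost when knockout replicate 2 was left out (-0.47, adjusted p = 0.0576). Ccne2 at day 5 had 25.5, 21.9 and 22.1 TPM in knockout libraries, against 36.8, 25.8 and 26.7 TPM in control libraries (log2 difference -0.33 ± 0.12, adjusted p = 0.0319). Ccne2 at day 7 had 13.7, 15.1 and 13.2 TPM in knockout libraries, against 17.8, 17.6 and 17.8 TPM in control libraries (log2 difference -0.32 ± 0.12, adjusted p = 0.0312). The groups did not overlap in these 3 comparisons. The day 5 call of Ccne2 was lost when control replicate 1 (-0.18) or knockout replicate 2 or 3 (-0.30 each) was left out, with adjusted p values of 0.208, 0.115 and 0.098, and with the 2 groups fitted alone (adjusted p = 0.159). The day 7 call was lost when any of the 3 controls or knockout replicate 1 or 3 was left out, with adjusted p values of 0.0545 to 0.109.

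Ccne1 in day 7 granulocyte cultures averaged 13.5 ± 0.854 TPM in knockout and 15.5 ± 0.647 TPM in control cells (SD, n = 3 each), which passed as lower after scaling (-0.39, adjusted p = 0.0289) and after subtraction of the median of all genes (-0.35). At day 0 Ccne1 had 18.9, 12.7 and 21.3 TPM in knockout libraries, against 21, 25.8 and 22 TPM in control libraries (adjusted p = 0.0737). That passed as lower after scaling (-0.46, adjusted p = 0.0105), after subtraction of the median of all genes, in a fit of all 36 libraries (adjusted p = 0.0408) and with knockout replicate 3 left out (-0.53, adjusted p = 0.0263). Ccne1 in day 5 macrophage cultures averaged 23.4 ± 1.3 TPM in knockout and 28.3 ± 1.07 TPM in control cells. It passed as lower there with the 2 groups fitted alone (-0.26, adjusted p = 0.0408) and turned to 0.011 once the median of all genes was subtracted.

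Day 5 macrophage cultures had Ccne2 at 25.7, 25.9 and 25 TPM in knockout libraries, against 31.3, 28.2 and 33.6 TPM in control libraries (log2 difference -0.27 ± 0.09, adjusted p = 0.0236). No overlap was seen between the groups. That difference was -0.021 after scaling (adjusted p = 0.819), and its sign turned once the median of all genes was subtracted (0.0058). The call was also lost with control replicate 1 or 3 or knockout replicate 3 left out (adjusted p values of 0.0518, 0.11 and 0.0702) and with the 2 groups fitted alone. Ccne2 in day 7 macrophage cultures averaged 29.1 ± 2.29 TPM in knockout and 31.9 ± 1.24 TPM in control cells. It passed as lower after scaling (-0.28, adjusted p = 0.00122), after subtraction of the median of all genes (-0.26, adjusted p = 0.00234) and without short structural RNA and histone genes (-0.24, adjusted p = 0.0185). Both E-type cyclins were higher in macrophage than in granulocyte cultures at day 7 in both genotypes, a call that Ccne1 in control cells lost after scaling (0.24, adjusted p = 0.0514).

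Of the inhibitors, Cdkn2d (chr9:21288410-21291407, minus strand) was lower in knockout cells at all 5 cultured stages, and at day 0 it did not pass. Its day 7 macrophage levels were 34, 22.7 and 22.5 TPM in knockout libraries, against 56.9, 58.2 and 46.3 TPM in control libraries. Cdkn2d differed by -1.02 ± 0.13 on the log2 scale (adjusted p = 6.58e-06). The levels at day 3 were 56, 49.7 and 50.4 TPM in knockout libraries, against 79.7, 79.4 and 85.6 TPM in control libraries. Cdkn2d differed by -0.64 ± 0.13 on the log2 scale (adjusted p = 0.000356). Neither comparison had overlapping groups, and both calls held under each alternative. Day 3 minus day 0 was 1.17 ± 0.13 with an adjusted p of 2.57e-07 in knockout and 2.03 ± 0.13 with an adjusted p of 2.47e-11 in control cells. These rises differed between the genotypes (-0.86 ± 0.18, adjusted p = 0.00161).

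Day 5 macrophage cultures had Cdkn2d at 52.3, 49.1 and 51.1 TPM in knockout libraries, against 73.2, 67.4 and 61.5 TPM in control libraries (log2 difference -0.40 ± 0.13, adjusted p = 0.0186). Day 5 granulocyte cultures had 61.4, 65.6 and 66.3 TPM in knockout libraries, against 102, 85.9 and 81.3 TPM in control libraries (log2 difference -0.47 ± 0.14, adjusted p = 0.017). The libraries of the groups did not overlap. Both calls were lost after scaling (-0.15, adjusted p = 0.471 in macrophage and -0.38, adjusted p = 0.0907 in granulocyte cultures). The macrophage call was also lost with control replicate 1 (adjusted p = 0.0714) or knockout replicate 2 (0.0592) left out, and the granulocyte call with control replicate 1 (0.0798) or knockout replicate 1 (0.0556) left out. Day 7 granulocyte cultures had 76.3, 50.5 and 56.1 TPM in knockout libraries, against 102, 97.4 and 70.4 TPM in control libraries (log2 difference -0.56 ± 0.14, adjusted p = 0.00385). There knockout replicate 1 lay above the lowest control, and the call was lost when the 2 groups were fitted alone (adjusted p = 0.0566).

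Cdkn1b (chr6:134920401-134925513, plus strand), the CDK2 inhibitor, was lower in knockout cells at day 3. It had 22.2, 21.1 and 20.8 TPM in knockout libraries, against 39.8, 29 and 30.8 TPM in control libraries. Cdkn1b differed by -0.60 ± 0.18 on the log2 scale (adjusted p = 0.00762). No overlap was seen between the groups, and the call was lost when control replicate 1 was left out (-0.47, adjusted p = 0.0543). Day 3 minus day 0 was 0.57 ± 0.18 with an adjusted p of 0.00938 in knockout and 1.14 ± 0.18 with an adjusted p of 8.39e-06 in control cells. The knockout step was lost without short structural RNA and histone genes (0.40, adjusted p = 0.0587).

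Day 5 macrophage cultures had Cdkn1b at 17.2, 14.7 and 16.6 TPM in knockout libraries, against 28, 14.1 and 17.4 TPM in control libraries. Day 5 granulocyte cultures had 18.8, 17 and 15.5 TPM in knockout libraries, against 31.3, 16 and 14.7 TPM in control libraries. Control replicate 1 stood far above the other controls in both courses. Neither comparison passed with or without that replicate. At day 7 the means were 16 ± 1.37 TPM in knockout and 21 ± 4.16 TPM in control cells in macrophage cultures and 28.8 ± 0.986 TPM in knockout and 27.4 ± 2.62 TPM in control cells in granulocyte cultures (SD, n = 3 each), and neither difference passed. The macrophage one passed as lower after scaling (-0.50, adjusted p = 0.0348), after subtraction of the median of all genes and with control replicate 3 left out (-0.50, adjusted p = 0.0367).

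Between the courses at day 7, macrophage minus granulocyte was -0.81 ± 0.13 with an adjusted p of 0.00046 for Cdkn1b in knockout and -0.38 ± 0.13 with an adjusted p of 0.0306 in control cells. The control call was lost with macrophage replicate 2 or 3 or granulocyte replicate 1 or 2 left out (adjusted p values of 0.0588 to 0.116). It was also lost with the 2 groups fitted alone, in a fit of all 36 libraries and without short structural RNA and histone genes.

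Cdkn2c (chr4:109660876-109667189, minus strand) went the other way from Cdkn2d at day 3, with 17.2, 18.4 and 16.7 TPM in knockout libraries, against 10.3, 13.6 and 11.1 TPM in control libraries. Cdkn2c differed by 0.55 ± 0.12 on the log2 scale (adjusted p = 0.000946), without overlap, and the call held under each alternative. Its day 5 macrophage levels were 23, 25.2 and 26.4 TPM in knockout libraries, against 14.6, 20.1 and 21.1 TPM in control libraries (log2 difference 0.42 ± 0.12, adjusted p = 0.0102). That call was lost with control replicate 1 left out (0.26, adjusted p = 0.0792) and with the 2 groups fitted alone (adjusted p = 0.0672). Granulocyte cultures of day 7 had 25.6, 14.8 and 17.7 TPM in knockout libraries, against 25.9, 26 and 27.5 TPM in control libraries (log2 difference -0.46 ± 0.16, adjusted p = 0.0235). Knockout replicate 1 was the nearest to the controls there. The call was lost when any of the 3 controls or knockout replicate 2 or 3 was left out (adjusted p values of 0.051 to 0.167), and with the 2 groups fitted alone.

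Cdkn2c in day 7 macrophage cultures had 40.8, 36.4 and 36.5 TPM in knockout libraries, against 44.9, 47.9 and 47.8 TPM in control libraries (adjusted p = 0.0587). That difference passed as lower after scaling (-0.45, adjusted p = 0.0102), with knockout replicate 1 left out (-0.35, adjusted p = 0.048) and in 4 other settings, among them a pseudocount of 5 TPM (adjusted p = 0.0406). Along the macrophage course Cdkn2c rose, with day 7 minus day 3 at 1.07 ± 0.12 with an adjusted p of 2.19e-07 in knockout and 1.92 ± 0.12 with an adjusted p of 5.4e-11 in control cells. The rise was smaller in knockout cells (difference -0.85 ± 0.17, adjusted p = 0.000976). In the granulocyte course it rose in control cells (1.12 ± 0.16, adjusted p = 6.27e-06), while the knockout step did not pass (0.11 ± 0.16, adjusted p = 0.578). These steps differed (-1.01 ± 0.23, adjusted p = 0.00197).

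Summed over the 3 inhibitors, the level in day 7 macrophage cultures was 73.81 to 92.23 TPM in knockout and 110.8 to 127.3 TPM in control libraries. The sum of Cdk4 and Cdk6 there was 283 to 293 TPM in knockout and 225.8 to 268.2 TPM in control libraries. At day 3 the inhibitors summed to 88 to 95.37 TPM in knockout and 122.1 to 129.8 TPM in control libraries, and the kinases to 354.3 to 386.8 TPM and 192.4 to 234.9 TPM. These sums are of TPM as deposited, and neither overlapped between the genotypes at these 2 stages. The log2 difference of Cdk4 in day 7 macrophage cultures was 0.082 after scaling (limma adjusted p = 0.396). Elsewhere some ranges overlapped. At day 0 the inhibitors summed to 59.41 to 68.14 TPM in knockout and 50.91 to 64.9 TPM in control libraries, and the kinases to 568.6 to 605.2 and 546.6 to 615.2 TPM. Day 5 macrophage kinases (229.1 to 254.1 and 206.8 to 241.4 TPM) and day 7 granulocyte inhibitors (95.16 to 130.6 and 122.6 to 155.7 TPM) overlapped too. The inhibitors in both day 5 courses, and the kinases in both granulocyte stages, did not.

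Along the courses most of the 10 genes were called in both genotypes, as were most genes. Day 3 against day 0 called 8 of the 10 in knockout and 10 in control cells, beside 58.8% and 73% of all genes. Day 7 against day 3 called 7 in knockout and 10 in control cells of the macrophage course, beside 62% and 63.4%. In the granulocyte course it called 7 in each genotype, beside 55.8% and 54.7%. Of the 49 calls on these day steps 42 held under each alternative. In control granulocyte cultures the calls of Ccne2, Cdk4 and Ccnd3 were lost after scaling (adjusted p values of 0.375, 0.526 and 0.079). Those of Ccne2 and Cdk4 were lost under 11 and 7 of 16 alternatives.

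The macrophage against the granulocyte course called 4 of the 10 genes in knockout and 2 in control cells at day 5, beside 16.5% and 3.44% of all genes. At day 7 it called 9 in each genotype, beside 53% and 46.7%. Ccnd1 was higher and Cdkn2d lower in macrophage cultures of both genotypes at day 5, and Cdk4 and Cdk6 were lower there in knockout cells. The day 5 calls of Cdk4 and Cdkn2d in knockout cells were lost after scaling. Single libraries left out gave adjusted p values of 0.0737 to 0.0816 for Cdk4 in 3 cases, 0.0545 to 0.113 for Cdkn2d in knockout cells in 5 cases and 0.0546 to 0.157 for Cdkn2d in control cells in 4 cases. The day 5 control call of Cdkn2d was also lost with the 2 groups fitted alone (adjusted p = 0.261) and in a fit of all 36 libraries (0.169). It was lost too without short structural RNA and histone genes (0.052). At day 7 the calls of Cdk4 (0.24, adjusted p = 0.0687) and Cdk6 (0.21, adjusted p = 0.183) in knockout cells were lost after scaling. That of Cdkn2d in control cells was lost with macrophage replicate 3 or granulocyte replicate 1 or 2 left out (adjusted p values of 0.0529 to 0.0609).

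The knockout effects themselves differed between stages or courses for some of the 10 genes. Between days 3 and 0 the effects of 3 genes differed (Ccne1, Cdk4 and Cdkn2d), beside 32.3% of all genes. Between days 7 and 3 those of 3 differed in the macrophage course (Ccne2, Cdk4 and Cdkn2c), beside 35.2%. In the granulocyte course those of 7 differed (Ccnd1, Ccnd2, Ccne1, Ccne2, Cdk4, Cdkn1b and Cdkn2c), beside 33.8%, and the calls of Ccnd1 and Cdkn1b did not hold under each alternative. Between the courses at day 7 the effect on 1 gene, Ccnd2, differed, beside 3.26%, and that call was lost under 10 of 23 alternatives. The comparisons with day 3 share their day 3 libraries.

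A list of 28 other G1/S regulators was counted beside these genes. At day 0 it had 2 higher in knockout cells and 0 lower, beside 13.1% and 10.2% of all genes. Cdkn1a, a CDK inhibitor induced by p53, averaged 9.36 TPM in knockout and 1.7 TPM in control cells (log2 difference 1.95 ± 0.18, adjusted p = 1.57e-07). Rb1, the retinoblastoma gene, was the other (0.53 ± 0.16, adjusted p = 0.021). At day 3 the list had 12 higher and 3 lower, beside 26.5% and 26.7% of all genes. Skp2, a ubiquitin ligase subunit that targets CDKN1B, was higher (1.18 ± 0.13, adjusted p = 3.82e-07), as were Tfdp1 (0.91 ± 0.11, adjusted p = 7.52e-07) and E2f4 (0.70 ± 0.10, adjusted p = 1.4e-05), whose products form E2F complexes. Cdkn2b, another INK4 gene, was lower (-1.1 ± 0.17, adjusted p = 1.71e-05). Macrophage cultures of day 5 had 2 higher and 9 lower, beside 5.11% and 37.9% of all genes, and after scaling 5 and 1. The smallest p values there belonged to Cdk2 (-0.42 ± 0.09, adjusted p = 0.00108), E2f6 (0.42 ± 0.10, adjusted p = 0.00262), E2f8 (-0.67 ± 0.18, adjusted p = 0.00455) and Cdc25a (-0.60 ± 0.17, adjusted p = 0.00819).

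Macrophage cultures of day 7 had 3 of the 28 higher and 3 lower, beside 27.4% and 12.5% of all genes, and after scaling 2 and 6. Cdkn1a (1.34 ± 0.18, adjusted p = 1e-05) and E2f6 (0.45 ± 0.10, adjusted p = 0.00153) were higher there, and Ccna2, the S phase cyclin (-0.50 ± 0.10, adjusted p = 0.00056), and E2f2 (-0.72 ± 0.17, adjusted p = 0.00212) were lower. Day 5 granulocyte cultures had 4 higher and 2 lower, beside 9.2% and 22.8% of all genes, and after scaling 8 and 2. Myc, whose product activates Ccnd2 and Cdk4 in other cells, was higher (0.79 ± 0.12, adjusted p = 5.68e-05), as was Skp2 (0.45 ± 0.14, adjusted p = 0.0157), while Cdk2 (-0.30 ± 0.09, adjusted p = 0.0148) and E2f2 (-0.50 ± 0.16, adjusted p = 0.0175) were lower. Granulocyte cultures of day 7 had 10 higher and 5 lower, beside 32.1% and 12% of all genes, and after scaling 8 and 6. Myc (0.98 ± 0.12, adjusted p = 4.56e-06) was higher there, and so were the inhibitors Cdkn1a (1.77 ± 0.26, adjusted p = 2.57e-05), Cdkn2a (2.29 ± 0.30, adjusted p = 6.65e-06) and Cdkn2b (1.5 ± 0.24, adjusted p = 4.94e-05). The median log2 difference of the list was 0.209 at day 3 and 0.195 in day 7 granulocyte cultures, beside -0.0094 and 0.165 over all genes.

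Other lists moved with the day 3 differences of the 10 genes, at a day when 26.5% of all genes were called higher and 26.7% lower. Of 16 S phase genes 14 were higher and 1 was lower in knockout cells, with summed TPM of 1907 to 2178 in knockout and 967.8 to 1403 in control libraries. Of 16 G2 and mitosis genes 12 were higher (1205 to 1340.0 in knockout and 763.1 to 1131 in control libraries). Of 12 macrophage markers 11 were lower (174.8 to 300.9 and 840.0 to 1153), as were 10 of 10 megakaryocyte markers (285.7 to 630.0 and 1418 to 2443). Of the last 2 lists 0 markers were at 0 TPM throughout a day 3 group. The 11 granulocyte markers summed to 132000.0 to 146400.0 in knockout and 77670.0 to 92950.0 in control libraries, without overlap, while 1 of them was called higher and 1 lower. Eosinophil markers summed to 542.2 to 612.5 in knockout and 1844 to 2824 in control libraries, and dendritic markers to 110.3 to 131.5 and 273.7 to 450.7. Erythroid markers summed to 233.2 to 338.6 and 121.7 to 215.1. None of these lists overlapped, while the progenitor, lymphoid, and mast cell and basophil sums did. The part of these lists in the levels of the 10 genes was not tested, and in bulk cultures fewer cells of a type cannot be told apart from less RNA per cell.

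In the later cultures the lists moved as follows, with knockout before control ranges of summed TPM. Of all genes 5.11% were called higher and 37.9% lower in day 5 macrophage cultures, and 27.4% and 12.5% in day 7 macrophage cultures. The same shares were 9.2% and 22.8% in day 5 granulocyte cultures, and 32.1% and 12% in day 7 granulocyte cultures. Macrophage cultures of day 5 had 11 of 12 macrophage markers lower (379.2 to 472.3 and 875.5 to 1183), and 9 of 16 S phase genes lower as deposited and 3 after scaling. Their granulocyte markers summed to 190000.0 to 249300.0 and 58490.0 to 165500.0, without overlap, with 3 of 11 called higher and 3 lower. Day 5 granulocyte cultures had 11 of 12 macrophage markers lower (233.6 to 435 and 823.4 to 1234) and 4 of 8 progenitor markers higher (175.4 to 215.3 and 101.8 to 116.7). Their granulocyte markers summed to 187900.0 to 231400.0 and 63510.0 to 162700.0, without overlap, with 1 of 11 called higher and 1 lower. Macrophage cultures of day 7 had 4 of 8 progenitor markers higher (54.59 to 64.72 and 25.6 to 40.87) and 11 of 16 G2 and mitosis genes lower (829.6 to 905.1 and 1117 to 1170.0). Their granulocyte markers summed to 28660.0 to 42930.0 and 37220.0 to 74910.0, with 2 of 11 called higher and 5 lower. Megakaryocyte markers in these macrophage cultures summed to 1827 to 2265 and 421.3 to 446.3, without overlap. Day 7 granulocyte cultures, where Ccnd1 and Ccnd2 were higher, had 5 of 8 progenitor markers higher (132.2 to 167.3 and 59.96 to 68.18), as were 7 of 10 megakaryocyte markers (1254 to 1719 and 310.4 to 515.2). They also had 9 of 12 macrophage markers lower (992.4 to 1280.0 and 1755 to 2706) and 15 of 16 G2 and mitosis genes lower (539.1 to 706.2 and 804.4 to 908.4), and of 11 granulocyte markers 2 were called higher and 4 lower. The part of these lists in the results was not tested.

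Over the 36 libraries the genes whose log2(TPM + 1) followed each of the 10 most closely were taken from 8628 others with a mean of at least 5 TPM. Cdk4 was most like Prpf19 and Pola2 (Pearson r = 0.979 each), Cdk6 most like Lig3 (0.956) and 1110008L16Rik (0.954), and Cdkn2d most like Sqrdl and Padi4 (0.949 each). Ccnd1 was most like Tmem109 (0.958) and Tnfaip1 (0.92), Ccnd2 most like Ahctf1 (0.905) and Myc (0.899), and Ccnd3 most like Ckap4 (0.96) and Dgat1 (0.954). Ccne1 followed Rbmx (0.801) and Rrm2 (0.767), and Ccne2 followed Spc25 (0.916) and Prc1 (0.908). Cdkn1b followed Pnrc1 (0.92) and Khnyn (0.91), and Cdkn2c followed Wrb (0.868) and Abcb1b (0.859). Among the 10 themselves the r of largest size was 0.847, for Cdk4 and Cdk6. Ccnd3 and Cdkn2d had an r of 0.821, and Cdk4 and Cdkn2d one of -0.81. These correlations describe 12 groups that share a course of differentiation and library totals.

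In GENCODE M21 exons of 6 of the 10 genes overlap those of a gene on the opposite strand. The pairs are Ccnd1 with LTO1, Ccnd2 with 9330179D12Rik and Gm43126, Ccnd3 with Bysl, Ccne2 with Ints8, Cdk4 with Tspan31, and Cdk6 with Gm17590. The library kit keeps the strand, but no source used here says whether the counting used it, and reads of such pairs may not have been told apart.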

How the data were processed

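RNA levels were measured by RNA-seq in 36 libraries, 3 for each of 12 groups of genotype, day and course. The authors deposited TPM values per gene in 2 tables, 1 per course, whose 12 shared columns (days 0 and 3) hold equal values. The reads were mapped to mm10, with RSEM and DESeq2 1.38.3 among the tools, per the submitters' processing notes; the versions of other tools and the strand setting are not given in the sources used here. The kit keeps the strand, per the labels' protocols. TPM keeps no read depth, so no counting interval was given.

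From the deposited TPM values, limma 3.58.1 (R 4.3.3) modelled log2(TPM + 1) by group means, with a trend in the prior variance and Benjamini-Hochberg adjustment over all genes of at least 1 TPM in at least 3 libraries. The macrophage course fit (24 libraries, 11953 genes) also gave days 0 and 3, the granulocyte course fit had 24 libraries and 11905 genes, and the courses were compared in fits of day 5 (11119 genes) and day 7 (11269 genes), each of 12 libraries. Intervals are 95% intervals from the moderated t distribution. Shares were tested by exact two-sided permutation. Replicates correlated at 0.989 to 0.998, and size factors from the median of ratios ran from 0.83 to 1.17.

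The 10 genes and the lists (141 of 142 list symbols were found) were chosen with earlier results of these data known. All 10 are described. The other G1/S regulators named are the 4 of smallest adjusted p among the called genes of a comparison, and the most alike genes are the 2 of highest Pearson r. Libraries were taken to pair where each correlation of their deviations between same numbers was above 0.1. By this rule knockout and control libraries paired at day 5 of the macrophage course (0.3, 0.182 and 0.267) and not at the other stages. The macrophage and granulocyte courses paired in every group, with correlations of at least 0.231. Different numbers reached 0.614 in day 5 control, 0.43 in day 7 control and 0.348 in day 7 knockout cells. These exceeded the lowest same-numbered values there (0.464, 0.231 and 0.271), so that pairing is uncertain. Knockout day 7 macrophage libraries paired with those of day 3 (0.158, 0.188 and 0.157), where the block gave 7415 called genes, against 7405 without it. The other day steps did not pair by the rule. In the knockout granulocyte course, day 7 with day 3 gave 0.0798 to 0.172 for same numbers and at most 0.0413 for different ones. The source of the pairing is the data, not the labels. The alternatives were other pseudocounts (0.1 and 5 TPM), filters, scalings, sets of libraries, a replicate block, and each library left out; leaving out control replicate 1 at day 5, and knockout replicate 1 at day 7, in both courses was chosen after seeing the data. The fit was tested on simulated data.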

Additional observations from a re-analysis of the deposited data

Results flagged for a closer look

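The knockout effect differed between days or courses for 14 of the 40 differences tested in limma's fits, with adjusted p under 0.05. Of all genes, 32.3% were called in the same way between day 3 and day 0. Between day 7 and day 3 these shares were 35.2% in the macrophage and 33.8% in the granulocyte course. Between the courses at day 7 the share was 3.26%. Each value below is a difference of 2 knockout effects on log2(TPM + 1). Between day 3 and day 0 the effect differed for Ccne1 by 1.001 (adjusted p = 0.00185), for Cdk4 by 0.87 (adjusted p = 9.44e-05) and for Cdkn2d by -0.86 (adjusted p = 0.00161). Between day 7 and day 3 of the macrophage course it differed for Ccne2 by -0.56 (adjusted p = 0.00242), for Cdk4 by -0.66 (adjusted p = 0.000773) and for Cdkn2c by -0.85 (adjusted p = 0.000976).

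Between day 7 and day 3 of the granulocyte course the effect differed for Ccnd2 by 1.31 (adjusted p = 0.000279), for Ccne1 by -0.80 (adjusted p = 0.00748), for Ccne2 by -0.75 (adjusted p = 0.00169), for Cdk4 by -0.48 (adjusted p = 0.00949) and for Cdkn2c by -1.01 (adjusted p = 0.00197). It also differed there for Ccnd1 by 0.79 (adjusted p = 0.0247), a call lost after scaling (0.64, adjusted p = 0.061) and without knockout day 3 replicate 2, control day 7 replicate 1 or knockout day 7 replicate 2 (adjusted p values of 0.0501 to 0.0652). For Cdkn1b the difference was 0.67 (adjusted p = 0.0495), a call lost under 18 of 23 alternatives. Among these were scaling (0.51, adjusted p = 0.101), subtraction of the median of all genes (adjusted p = 0.0983), no filter (0.0726), a pseudocount of 0.1 TPM (0.0521), the fit of all 36 libraries (0.0646), and single libraries left out in 11 cases (0.0523 to 0.133). Between the macrophage and the granulocyte course at day 7 the effect on Ccnd2 differed by -1.16 (adjusted p = 0.0286). That call was lost under 10 of 23 alternatives, with adjusted p values of up to 0.0868. Both sets of comparisons with day 3 use the same day 3 libraries.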

How the results depend on the processing

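Read depth is unknown, so what it limits could not be measured, and 3 libraries a group leave calls near the threshold open to 1 library. At day 0, 1 of the 10 genes was called after median-of-ratios scaling, after subtraction of the median of all genes and in a fit of all 36 libraries, against 0 as reported, and leaving out 1 library gave 0 to 1. At day 5 macrophage the count of 4 became 2 without control replicate 1 in both courses, a choice made after seeing the data, and leaving out 1 library gave 2 to 4. At day 7 macrophage the count of 4 became 2 with no filter on low values and 2 with the replicate block, and leaving out 1 library gave 2 to 6. At day 5 granulocyte the count of 5 became 3 without control replicate 1 in both courses, and leaving out 1 library gave 2 to 6. At day 3 the count of 7 stayed between 6 and 8, and at day 7 granulocyte the count of 6 between 4 and 7. The day 5 macrophage differences of Ccne1 and Ccne2 reversed once the median of all genes was subtracted (0.011 and 0.0058). The causes were not tested. Besides Cdk4 and Cdk6 in day 7 macrophage cultures, the replicate block ended the call on Ccne2 at day 7 against day 3 in control granulocyte cultures (-0.28, adjusted p = 0.0502) and no other call on the 10 genes. Of all genes, 3806 were called at day 5 granulocyte as reported and 2493 with the 2 groups fitted alone. Macrophage against granulocyte cultures at day 5 called 1838 genes in knockout cells, against 3980 with the 2 groups alone, and 845 to 938 with 1 of 4 libraries left out. In control cells they called 382, against 158 to 806, the 806 without control replicate 1 in both courses, and 682 with the replicate block. The knockout effect differed between the courses at day 7 for 367 genes, against 108 (without control granulocyte replicate 2) to 959 (without knockout granulocyte replicate 1), and 700 with the replicate block.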
